A study of Rattus norvegicus with 78 samples.

Results

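The lysosomal membrane and hydrolase genes comprised 9 genes, Scarb2, Lamp1, Lamp2, Ctsb, Ctsd, Ctsl, Hexa, Psap and Npc2, read as every probeset that the array annotation assigned to them. These were 13 of 31042 probesets, with 3 for Lamp1, 2 each for Lamp2 and Ctsl and 1 for each of the other 6 genes. FSL rats (Flinders Sensitive Line) and FRL rats (Flinders Resistant Line) are lines selectively bred from Sprague-Dawley rats for high or low sensitivity to the anticholinesterase agent diisopropylfluorophosphate, and FSL rats are used as a genetic model of depression with FRL rats as the control line. All rats were adult males that went through a forced swim test 1 week before the brain was taken, and the labels give no further treatment. RNA was measured from the right hippocampus (HIP) and the right frontal lobe (prefrontal/frontal cortex, P/FC), with 1 array for each rat and region. The later animals, cohort 2, comprised 8 FSL and 10 FRL rats and cohort 1 comprised 9 FSL and 12 FRL rats, in each region.

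The values were background-subtracted intensities. A probeset entered the fit of a region if 50% or more of the FSL arrays and of the FRL arrays exceeded 30, and 11 of the 13 member probesets met this in P/FC and 12 in HIP. Median intensity per array lay between 60.8 and 65.9 in P/FC and between 56.8 and 63.0 in HIP. Summed cortex markers ran from 4543 to 7231 in P/FC and from 2145 to 3807 in HIP, and summed hippocampus markers from 1067 to 1547 in P/FC and from 2203 to 3030 in HIP, so neither marker sum overlapped between the regions. A change is FSL minus FRL on the log2 scale as the mean of both cohorts, with its standard error (SE), and a probeset was called where limma's moderated test gave an adjusted p under 0.05 over all probesets of the region.

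Lysosomes are acidic compartments in which proteins, lipids and glycans delivered by endocytosis and autophagy are broken down. Their membrane is lined by heavily glycosylated proteins, Lamp1 and Lamp2 among the most abundant, and Scarb2 (also called LIMP-2), which carries the enzyme glucocerebrosidase from the endoplasmic reticulum to the lysosome. Ctsb, Ctsd and Ctsl are cathepsins that cut proteins, Hexa is the alpha subunit of beta-hexosaminidase A, Psap is the precursor of the saposins that activate sphingolipid hydrolases, and Npc2 binds cholesterol in the lumen. Many lysosomal genes are known to respond together to the transcription factor TFEB, which binds elements built on the palindrome CACGTG. In the brain, neurons and glia all carry lysosomes, and inherited loss of several of these genes gives storage disease of the nervous system.

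RefSeq promoters (build GRCr8, 250 bases before to 50 after the start site) were matched for 6 of the 9 genes, Scarb2, Lamp1, Lamp2, Ctsd, Ctsl and Npc2. They are shown for the gene that was higher in FSL rats (Scarb2) and for 3 of the 4 genes that were lower in P/FC (Lamp1, Lamp2 and Npc2), with CACGTG in capitals. The motif reads the same on both strands.
Scarb2, chr14:15842333-15842632, plus strand: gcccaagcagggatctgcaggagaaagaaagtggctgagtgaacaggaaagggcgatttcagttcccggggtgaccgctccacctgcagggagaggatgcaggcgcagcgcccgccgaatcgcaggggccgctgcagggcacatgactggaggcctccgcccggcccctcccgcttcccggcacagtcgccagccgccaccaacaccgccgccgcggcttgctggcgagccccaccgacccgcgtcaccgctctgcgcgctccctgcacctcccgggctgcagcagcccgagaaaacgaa
Lamp1, chr16:83075014-83075313, minus strand: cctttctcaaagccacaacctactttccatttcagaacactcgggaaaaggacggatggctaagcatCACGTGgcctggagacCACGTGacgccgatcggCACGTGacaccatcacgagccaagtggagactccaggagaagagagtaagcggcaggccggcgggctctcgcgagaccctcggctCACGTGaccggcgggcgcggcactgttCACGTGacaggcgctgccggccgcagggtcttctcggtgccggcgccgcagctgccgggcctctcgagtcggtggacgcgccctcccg
Lamp2, chrX:122087624-122087923, minus strand: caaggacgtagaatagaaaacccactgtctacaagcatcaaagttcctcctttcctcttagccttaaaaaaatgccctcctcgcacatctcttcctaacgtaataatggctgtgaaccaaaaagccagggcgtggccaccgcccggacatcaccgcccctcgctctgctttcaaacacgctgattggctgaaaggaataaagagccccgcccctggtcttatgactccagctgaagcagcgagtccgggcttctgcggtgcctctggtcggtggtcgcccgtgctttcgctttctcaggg
Npc2, chr6:110149196-110149495, minus strand: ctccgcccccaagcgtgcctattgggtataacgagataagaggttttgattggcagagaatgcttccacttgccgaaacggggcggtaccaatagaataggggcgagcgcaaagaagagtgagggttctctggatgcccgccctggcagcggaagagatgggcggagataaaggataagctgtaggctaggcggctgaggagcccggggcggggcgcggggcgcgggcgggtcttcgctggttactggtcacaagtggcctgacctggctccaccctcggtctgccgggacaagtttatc
The window of Lamp1 held 5 CACGTG matches and that of Ctsd 2, and the windows of Scarb2, Lamp2, Ctsl and Npc2 held none. Of 33469 RefSeq promoter windows of this length, 6.4% held at least 1 match. A match is a stretch of letters and not a measured binding site.

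Scarb2 was the member with the largest line difference, and it was higher in FSL rats in both regions and both cohorts. In P/FC its intensity ran from 71.8 over a median of 103 to 126 in FSL rats of cohort 2, against 33.8, 57.4 and 96.9 in FRL rats. In P/FC of cohort 1 the lowest, median and highest values were 86.6, 100.6 and 116 in FSL rats, against 51.5, 62.7 and 105 in FRL rats. Every FSL array of P/FC lay above the FRL median of its cohort, 8 of 8 in cohort 2 and 9 of 9 in cohort 1, while the lines overlapped in both. In HIP the 3 values were 62.8, 85.4 and 99.0 in FSL rats of cohort 2 against 39.7, 55.3 and 88.3 in FRL rats. In HIP of cohort 1 they were 86.1, 92.7 and 125 in FSL rats against 43.1, 68.0 and 110.0 in FRL rats. Again all 8 and all 9 FSL arrays lay above the FRL median, and 3 FRL arrays in each cohort lay above the lowest FSL array.

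**Figure D1:**
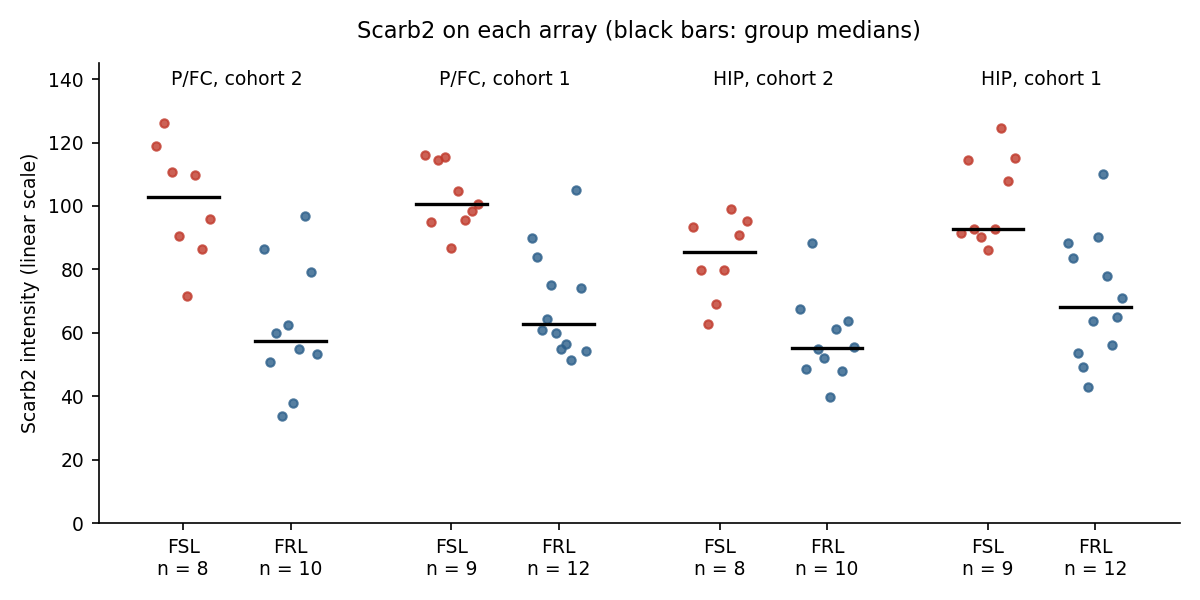
Scarb2 intensity (linear scale) on each of the 78 arrays, by region, cohort and line, with FSL in red, FRL in blue and a black bar at the group median. In all 4 pairs of groups every FSL array lies above the FRL median, and single FRL arrays reach into the FSL range, up to 105 in P/FC and 110.0 in HIP.

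The Scarb2 change was 0.69 (SE 0.106) in P/FC, a 1.61-fold difference, and 0.55 (SE 0.0975) in HIP, a 1.47-fold difference. By cohort it was 0.77 in cohort 2 and 0.60 in cohort 1 for P/FC, and 0.55 in cohort 2 and 0.56 in cohort 1 for HIP. Ranked from the largest increase down, Scarb2 stood in place 31 of 22370 probesets in P/FC and in place 42 of 21630 in HIP. These values are given as a description with no test, because Scarb2 was among the genes picked out for their line difference in these same arrays. Relative to their lower means FRL rats varied more than FSL rats, and no test of spread was run. In intensity units the SD in cohort 2 was 18.2 in FSL and 20.4 in FRL rats for P/FC, and 13.1 and 13.4 for HIP. In cohort 1 it was 10.5 in FSL and 16.7 in FRL rats for P/FC, and 13.9 and 19.7 for HIP. The coefficient of variation was 18.0% in FSL and 33.1% in FRL rats for P/FC of cohort 2, and 10.2% in FSL and 24.1% in FRL rats for P/FC of cohort 1. In HIP it was 15.6% in FSL and 23.1% in FRL rats of cohort 2, and 13.7% in FSL and 27.7% in FRL rats of cohort 1. Scarb2 was read by 1 probeset, so no second reading of this gene was at hand. It was not among the genes that the paper measured by real-time PCR. The paper names sequence polymorphisms as a possible source of some array differences, and their part in the Scarb2 value was not tested.

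No other member was called higher in FSL rats in either region. In P/FC none of the other 10 fitted probesets was called higher, against 9.76% of all 22370 probesets called higher, and in HIP none of the other 11 was called in either direction, against 7.33% of all 21630 probesets, 3.2% higher and 4.13% lower (limma). At an unadjusted p under 0.05 there were 6 of 10 in P/FC, all below 0, against 15.6% of all probesets on that side, and 2 of 11 in HIP, both below 0, against 11.5%. A plain analysis of variance called 1 of the 11 in HIP, against 8.1% of all probesets. The median change of the others was -0.08 in P/FC and -0.01 in HIP. The highest upper 95% bound among them was 0.20 in P/FC, for the dimmer Ctsl probeset, and 0.28 in HIP, for a dim Lamp1 probeset.

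**Figure D2:**
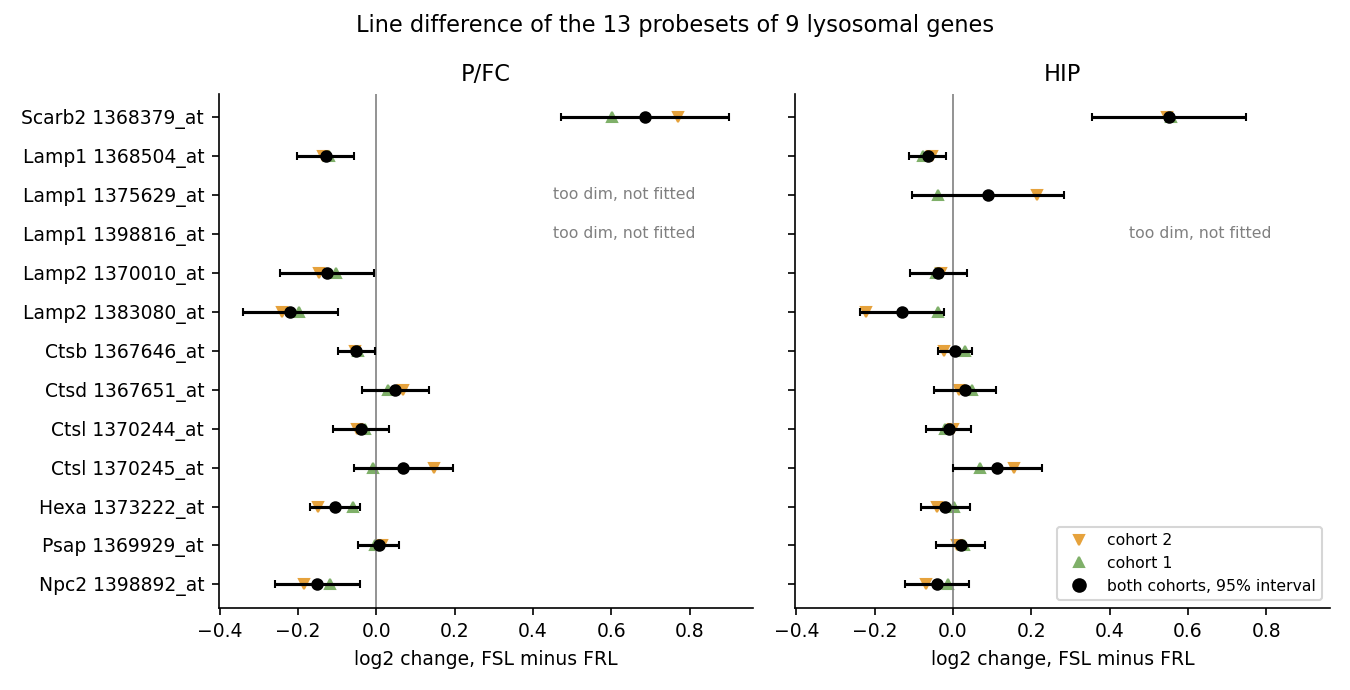
Log2 change (FSL minus FRL) of the 13 member probesets in P/FC and HIP, with black points for the mean of both cohorts and its 95% interval, and triangles for each cohort. Scarb2 stands alone on the right at 0.69 in P/FC and 0.55 in HIP, and the other intervals end at or below 0.20 in P/FC and 0.28 in HIP.

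In P/FC 4 of the other 10 probesets were lower in FSL rats and called, 1 each of Lamp1, Lamp2, Hexa and Npc2, against 8.86% of all probesets called lower. Lamp1, the bulk glycoprotein of the lysosomal membrane, was read mainly by probeset 1368504_at. Its lowest, median and highest intensities were 1107, 1163 and 1258 in FSL rats of cohort 2 against 1110.4, 1306 and 1386 in FRL rats. In cohort 1 they were 1197, 1246 and 1379 in FSL rats against 1099.5, 1368 and 1581 in FRL rats. No FSL array of cohort 2 and 1 of 9 FSL arrays of cohort 1 reached above the FRL median, and the ranges overlapped. The change was -0.13 (SE 0.0360, adjusted p = 0.0102, limma). The other Lamp1 probesets were too dim to fit in P/FC, with highest values of 40.3 and 35.4 in FSL rats and 38.8 and 25.3 in FRL rats.

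Lamp2, whose splice forms include the receptor of chaperone-mediated autophagy, was read by a pair of probesets that both lay lower in FSL rats of P/FC. Probeset 1383080_at ran from 205 over a median of 263 to 328 in FSL rats of cohort 2, against 271, 305 and 369 in FRL rats. In cohort 1 the 3 values were 206, 212 and 255 in FSL rats against 194, 256 and 331 in FRL rats. In cohort 2, 5 of 8 FSL arrays lay below the lowest FRL array, and in cohort 1 no FSL array reached the FRL median. The change was -0.22 (SE 0.0598, adjusted p = 0.00848, limma). The brighter probeset 1370010_at had medians of 445 in FSL and 503 in FRL rats of cohort 2 and 499 in FSL and 558 in FRL rats of cohort 1. Its change of -0.13 (SE 0.0594) did not pass (adjusted p = 0.137, limma).

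Hexa, 1 chain of the heterodimer that clears ganglioside GM2, had P/FC intensities of 298, 329 and 345 (lowest, median, highest) in FSL rats of cohort 2 against 324, 355 and 382 in FRL rats. In cohort 1 they were 319, 356 and 384 in FSL rats against 332, 369 and 401 in FRL rats. All FSL arrays of cohort 2 lay below the FRL median, while 3 of 9 lay above it in cohort 1. The change was -0.11 (SE 0.0318, adjusted p = 0.0172, limma), made up of -0.15 in cohort 2 and -0.06 in cohort 1. Npc2 ran from 641 over a median of 750.3 to 810.0 in FSL rats of cohort 2 against 665, 832 and 1158 in FRL rats. In cohort 1 Npc2 had 684, 747 and 800.3 in FSL rats against 637, 818 and 992 in FRL rats. No FSL array of either cohort reached the FRL median of Npc2, and its change was -0.15 (SE 0.0538, adjusted p = 0.0440, limma). The Npc2 call was lost in 23 of 39 fits with 1 array left out (adjusted p up to 0.0785, limma).

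**Figure D3:**
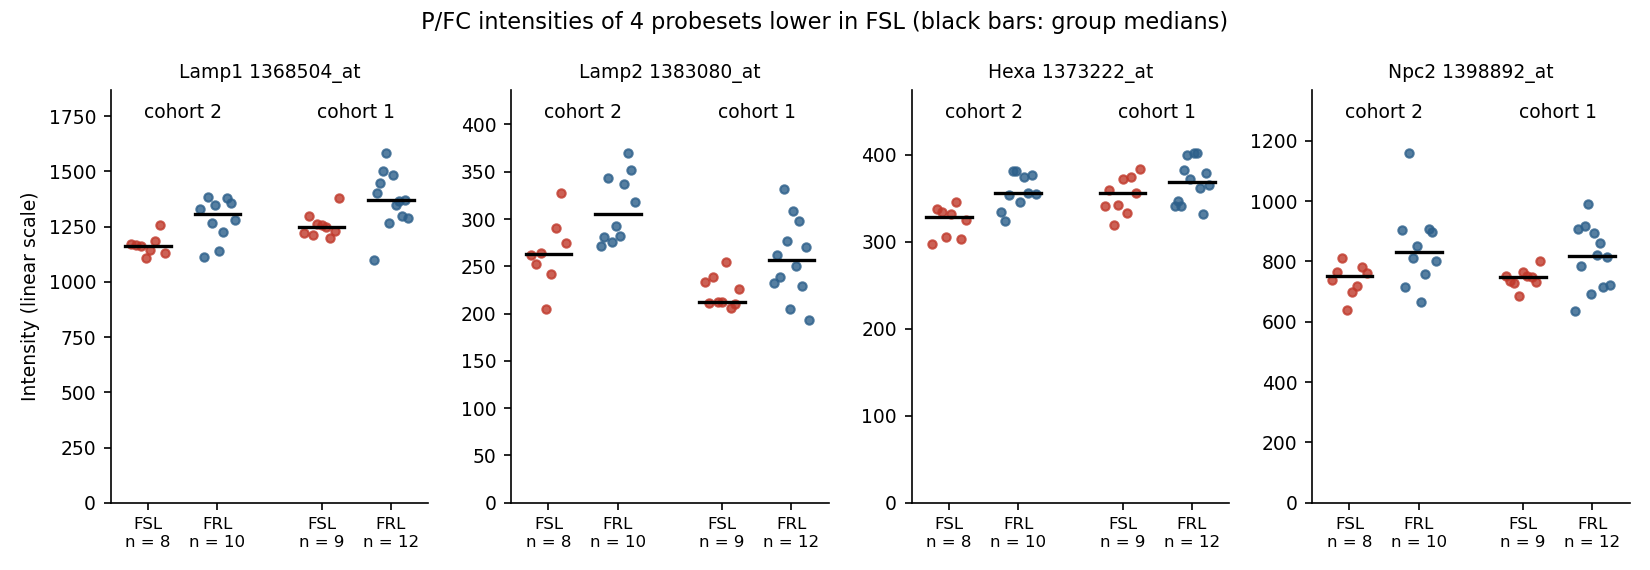
P/FC intensity (linear scale) of the Lamp1, Lamp2, Hexa and Npc2 probesets called lower in FSL rats, on each array by cohort and line, with FSL in red, FRL in blue and black bars at the group medians. The FSL medians lie below the FRL medians in all 8 pairs, and the ranges overlap in all 8.

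None of the 4 was called within a cohort, against 1.98% of all probesets called lower in cohort 2 and 4.01% in cohort 1, and the lowest adjusted p was 0.0574, for Hexa in cohort 2 (limma). Under the rule of an unadjusted p of at most 0.05 in each cohort with the same sign, Lamp1 1368504_at and Lamp2 1383080_at passed in P/FC, against 4.7% of all probesets that passed it downwards. In HIP the same 4 probesets had changes of -0.06 (Lamp1, adjusted p = 0.0854), -0.13 (Lamp2, 0.135), -0.02 (Hexa, 0.784) and -0.04 (Npc2, 0.620, limma), and Lamp1 was called there when FRL replicate 4 of cohort 2 was left out.

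Markers of other cell types also differed between the lines. Beside the counts below, 8.86% of all probesets were called lower and 9.76% higher in P/FC. In HIP these shares were 4.13% lower and 3.2% higher. In P/FC 7 of 8 astrocyte markers were lower in FSL rats and called (median change -0.26), with summed intensities of 11693 to 14363 in FSL against 11615 to 17822 in FRL arrays. Of 7 endothelial markers 4 were lower and called (median -0.26), with sums of 1274 to 1599 in FSL against 1294 to 2256 in FRL arrays. Of 10 fitted microglia markers all had changes below 0 and 1, Csf1r, was called (median -0.17), with sums of 1146 to 1547 in FSL against 1204 to 1919 in FRL arrays, Itgam and Ptprc averaging under 30. Of 8 neuron markers 5 were higher and 1 lower, with sums of 15835 to 18268 in FSL against 14829 to 18934 in FRL arrays. Striatum markers lay above 0 in 7 of 7, with 2 called and a median of 0.58, and sums of 1134 to 5404 in FSL against 914 to 5184 in FRL arrays. Of 6 cortex markers 2 were lower and called, and of 5 fitted hippocampus markers 1 was higher and called. No oligodendrocyte (7), choroid plexus (6 fitted) or meninges marker (6 fitted) was called in P/FC. In HIP 5 of 8 astrocyte markers were lower and called (median -0.12, sums of 14668 to 16125 in FSL against 14982 to 17972 in FRL arrays), 3 of 8 neuron markers were higher and 1 lower, 1 of 7 endothelial markers was lower and 1 of 9 microglia markers was higher. Of 7 meninges markers 1 was higher and called in HIP, and no oligodendrocyte, choroid plexus, striatum, hippocampus or cortex marker was called there. In such tissue RNA, fewer cells of a type and less RNA in each cell cannot be told apart.

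RNA measures moved as well. The array carries control probesets at both ends of Gapdh and Actb transcripts, and their 3' over 5' signal (log2 ratio) for Gapdh in P/FC was 0.821 ± 0.0471 in FSL against 0.918 ± 0.107 in FRL rats of cohort 2, and 0.736 ± 0.0472 in FSL against 0.834 ± 0.0928 in FRL rats of cohort 1 (SD, n as above). It was lower in FSL rats in cohort 1 (two-sided exact permutation test, adjusted p = 0.0246 over 8 tests) and missed the threshold in cohort 2 (adjusted p = 0.0601, exact). The Actb ratio was lower in FSL rats in HIP of both cohorts (adjusted p = 0.0244 in cohort 2 and 0.0103 in cohort 1, exact), and passed in neither cohort of P/FC (0.744 in cohort 2 and 0.0601 in cohort 1, exact).

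With the Gapdh ratio in the P/FC fit, 0 of the 4 lower probesets were called, with changes from -0.13 (Lamp2) to -0.05 (Hexa), while calls among all probesets went down to 3.81% from 18.6%. With the astrocyte markers in the fit none was called, Lamp1 stood at 0.00 and Npc2 at 0.06, and 1.81% of all probesets were called. With the endothelial markers none was called (Lamp1 -0.06, Npc2 0.01, 2.37% of all), and with the neuron markers none (Lamp1 -0.08, Npc2 -0.07, 4.8% of all). With the microglia markers Lamp1, Lamp2 and Hexa were still called and Npc2 was not (-0.09, adjusted p = 0.0962, limma). The marker covariates other than microglia were added after the data were seen. Scarb2 kept a change between 0.66 and 0.78 in P/FC under all of these covariates, and between 0.50 and 0.61 in HIP, except with the Actb ratio, where the HIP change was 0.36. The part of cell types and RNA quality in the line differences was not tested.

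**Figure D4:**
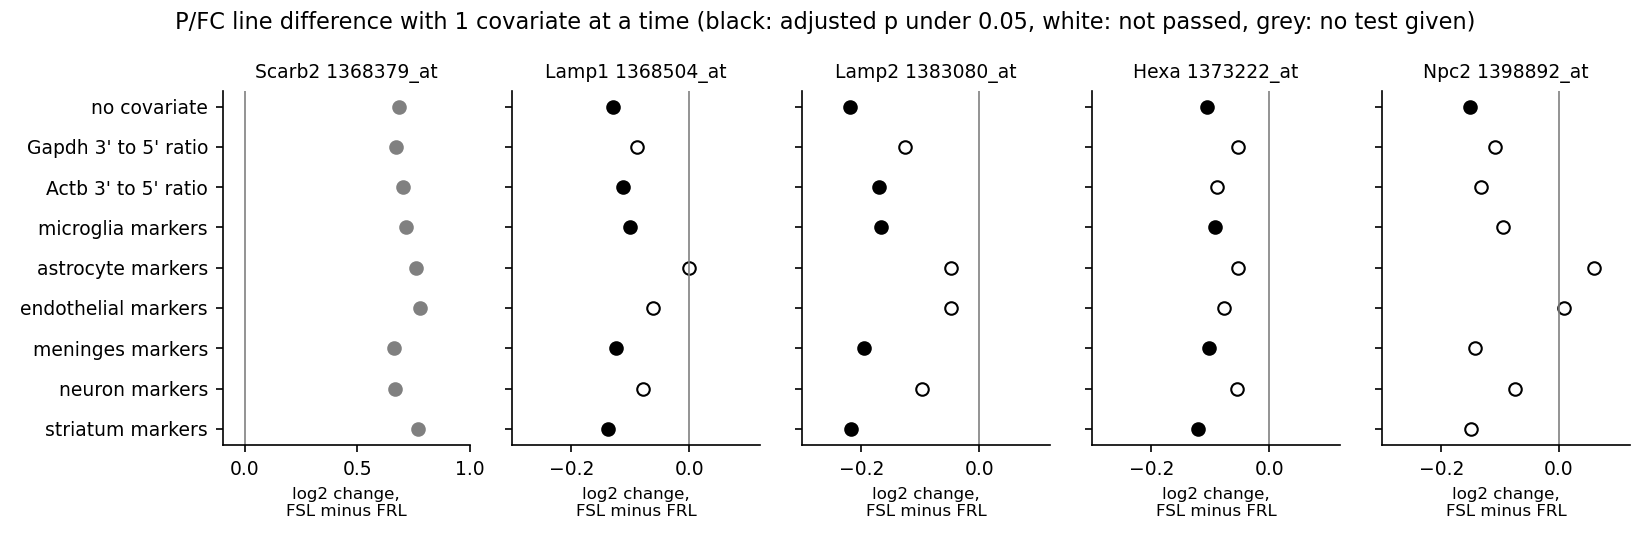
P/FC log2 change (FSL minus FRL) of Scarb2 and of the 4 probesets lower in FSL rats, fitted with 1 covariate at a time, with black points where adjusted p was under 0.05, white points where it was not, and grey points for Scarb2, which was given no test. Lamp1, Lamp2, Hexa and Npc2 move towards 0 with the astrocyte, endothelial and neuron markers and the Gapdh ratio, and Scarb2 stays between 0.66 and 0.78.

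The cathepsins and Psap showed no called line difference in either region. Ctsb, a cysteine protease with endo- and exopeptidase activity, had P/FC medians of 2002 in FSL against 2081 in FRL rats of cohort 2 and of 1924 in FSL against 2015 in FRL rats of cohort 1. Its change was -0.05 (SE 0.0235, adjusted p = 0.124) in P/FC and 0.00 (SE 0.0211, adjusted p = 0.928) in HIP (limma). Ctsd, the main aspartic protease, had P/FC medians of 508 in FSL against 486 in FRL rats of cohort 2 and of 579 in FSL against 560 in FRL rats of cohort 1. Its change was 0.05 (95% interval -0.04 to 0.13) in P/FC and 0.03 (-0.05 to 0.11) in HIP, although 8 of 8 and 8 of 9 FSL arrays of P/FC lay above the FRL median of cohort 2 and of cohort 1.

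Ctsl, a cysteine endopeptidase, was read by a bright probeset, 1370244_at, with changes of -0.04 in P/FC and -0.01 in HIP, and a dimmer one, 1370245_at, with changes of 0.07 in P/FC and 0.11 in HIP. The probesets thus differed in sign, and neither was called (adjusted p = 0.481 and 0.486 in P/FC, 0.878 and 0.240 in HIP, limma). Psap had the smallest change of the fitted members in P/FC, with medians of 2563 in FSL against 2474 in FRL rats of cohort 2 and of 2509.7 in FSL against 2509.4 in FRL rats of cohort 1. The Psap change was 0.01 (95% interval -0.05 to 0.06) in P/FC and 0.02 (-0.04 to 0.08) in HIP.

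The line difference of no member was shown to differ between the cohorts or the regions. For cohort 2 minus cohort 1 no probeset of either region was called, and the lowest unadjusted p of a member was 0.0912, for Lamp2 1383080_at in HIP. For the line difference in P/FC minus that in HIP, 14 of 20963 probesets (0.0668%) and no member were called by limma, and no member by a plain analysis of variance. The lowest unadjusted p was 0.0478 for Hexa (difference -0.09, 95% interval -0.17 to 0.00), the only 1 under 0.05. For Scarb2 the difference was 0.13, with an interval of -0.16 to 0.43, so a region difference of that size was not detectable with these arrays. The Lamp1, Lamp2, Hexa and Npc2 calls in P/FC were therefore not shown to be particular to that region.

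The level of some members differed between the regions over both lines. By the methods, HIP and P/FC samples went through processing apart from each other, so every level difference given here mixes region with sample handling. The part of sample handling in these differences was not tested. Ctsd was lower in P/FC, with values of 488 to 721 in FSL and 465 to 762 in FRL arrays of P/FC against 738 to 1021 in FSL and 700.2 to 944 in FRL arrays of HIP. The regions overlapped, with 2 of 39 P/FC arrays above the lowest HIP array and 19 of 39 HIP arrays below the highest P/FC array, and the difference in P/FC minus HIP was -0.53 (SE 0.0284, adjusted p = 2.97e-28, limma). Ctsl was higher in P/FC, by 0.28 (SE 0.0220) for the bright and 0.43 (SE 0.0422) for the dimmer probeset. In all, 7 of 11 member probesets were called between the regions, against 69.6% of 20963 probesets, whose median difference was 0.08 and of whose calls 69.7% were higher in P/FC. After quantile normalisation that median was -0.01 and 47.6% of calls were higher, and Ctsd (-0.64) and Ctsl (0.16 and 0.35) stood. Hexa went to -0.01 from 0.09 and Npc2 to -0.02 from 0.09, and neither was called any more. Lamp1 1368504_at (-0.08, adjusted p = 2.01e-04) and Lamp2 1370010_at (-0.10, 0.00693, limma), not called before, were then called lower in P/FC. Without quantile normalisation Scarb2 differed by 0.08 (95% interval -0.07 to 0.23) and was not called.

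Other lysosomal genes were read from 7 lists of 108 genes with a probeset, 1 probeset a gene. In P/FC 12 of 102 fitted genes were higher and 9 lower in FSL rats, 20.6% called against 18.6% of all probesets, and the median change was 0.00. In HIP 4 of 101 were higher and 3 lower, 6.93% against 7.33%, with a median of -0.01. The lists taken whole were thus called about as often as the array. With the Gapdh ratio in the fit the P/FC counts were 3 higher and 0 lower, while 3.81% of all probesets were called. With the astrocyte markers they were 1 higher and 0 lower, while 1.81% of all probesets were called.

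Subunits of the vacuolar ATPase, the pump that acidifies lysosomes, were called higher in 6 of 18 genes in P/FC, against 9.76% of all probesets, and in 2 of 18 in HIP, against 3.2%, and none was called lower. The median change of the 18 was 0.05 in P/FC, and 15 of them lay above 0. Atp6v1c1 averaged 1252 in FSL against 1108 in FRL rats in P/FC and 1162 in FSL against 1074 in FRL rats in HIP, changes of 0.19 (adjusted p = 0.00541) and 0.12 (adjusted p = 0.00404, limma). Atp6v1a, the catalytic subunit, rose by 0.17 in P/FC (adjusted p = 0.00397), Atp6v1h rose by 0.11 in P/FC (-0.02 with the astrocyte markers in the fit) and 0.12 in HIP, and the other 3 called subunits rose by 0.08 (Atp6v1f) to 0.13 in P/FC. Of the 8 neuron markers 5 were called higher and 1 lower in P/FC. With the mean of all 8 in the fit, 2 genes of all 7 lists were called higher in P/FC and 1 lower. Calls among all probesets went down to 4.8% from 18.6% in that fit, and the part of neurons in the ATPase changes was not tested.

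Of the lysosomal proteases outside the members, 3 of 11 were called lower and 1 higher in P/FC, against 8.86% lower and 9.76% higher of all probesets, and 2 of 11 were called lower and 1 higher in HIP, against 4.13% and 3.2%. The change was below 0 for 9 of 11 in P/FC and for 10 of 11 in HIP. Ctss, a cathepsin of microglia and other myeloid cells, averaged 1229.8 in FSL against 1497 in FRL rats in P/FC and 1137 in FSL against 1281 in FRL rats in HIP. It fell by 0.28 in P/FC (adjusted p = 5.96e-04) and by 0.17 in HIP (adjusted p = 1.96e-04, limma). Ctsh, a cathepsin with aminopeptidase activity, fell by 0.28 in P/FC (adjusted p = 0.00267) and by 0.17 in HIP (0.00737), and Lgmn, the asparaginyl endopeptidase that processes cathepsins, fell by 0.10 in P/FC (0.0129). Scpep1, a serine carboxypeptidase, went the other way, with means of 301 in FSL against 242 in FRL rats in P/FC and 209.6 in FSL against 161 in FRL rats in HIP. Its changes of 0.34 (adjusted p = 0.00212) and 0.41 (adjusted p = 9.83e-06, limma) were among the largest of the lists, and in HIP the largest of 101 genes fitted.

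Enzymes of lipids and glycans went in both directions. In P/FC 1 of 12 glycosidases was called higher and 2 lower. Of 14 lipases, sulfatases and phosphatases 1 was higher and 2 lower, against 9.76% higher and 8.86% lower of all probesets. In HIP none of 11 glycosidases was called, and 1 of 14 of the other list was higher, against 7.33% of all probesets called. These counts are small and do not set the lists apart from the array. Asah1, acid ceramidase, rose by 0.33 in P/FC (mean 199.5 in FSL against 161.5 in FRL rats, adjusted p = 5.89e-05) and by 0.21 in HIP (188 in FSL against 162 in FRL rats, 0.00787, limma). In P/FC Gm2a, the activator that presents ganglioside GM2 to hexosaminidase A, fell by 0.27 (adjusted p = 0.00353), Ids, iduronate 2-sulfatase, by 0.16 (0.00851), Idua, alpha-L-iduronidase, by 0.24 (0.00457) and Man2b1, a lysosomal alpha-mannosidase, by 0.31 (0.00992, limma). Gaa, acid alpha-glucosidase, rose by 0.39 in P/FC (adjusted p = 0.0130), with 0.11 in cohort 2 and 0.66 in cohort 1. The median change of the striatum markers in P/FC was 0.11 in cohort 2 and 1.09 in cohort 1, and its part in the Gaa value was not tested.

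Of the other lists, 2 of 20 membrane, 2 of 18 sorting and 1 of 9 regulator genes were called in P/FC, against 18.6% of all probesets, and in HIP 1 membrane gene and no sorting or regulator gene, against 7.33%. Sidt2, a lysosomal membrane protein, fell by 0.13 in P/FC and 0.10 in HIP (adjusted p = 0.00110 and 0.0194), and Clcn7, the chloride-proton exchanger, rose by 0.18 in P/FC (0.0257, limma). Among sorting genes Vps26a, a retromer subunit, rose by 0.20 in P/FC (adjusted p = 0.0160) and Rab7a, the small GTPase of late endosomes, fell by 0.07 (0.0148, limma), whereas the mean of all Rab7a probesets changed by 0.05. Next in rank and not called in P/FC were Aga, Arsa, Laptm5, Cln6, Grn, Vps35, Usf2 and Zkscan3, with changes from -0.16 (Laptm5) to 0.10 (Vps35) and adjusted p from 0.0559 (Vps35) to 0.184 (Usf2, limma). Rraga, a Rag GTPase that recruits mTORC1 to the lysosome, rose by 0.20 in P/FC (adjusted p = 0.00112, limma). Tfeb had changes of -0.06 in P/FC and 0.00 in HIP, with adjusted p of 0.386 and 0.969.

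**Figure D5:**
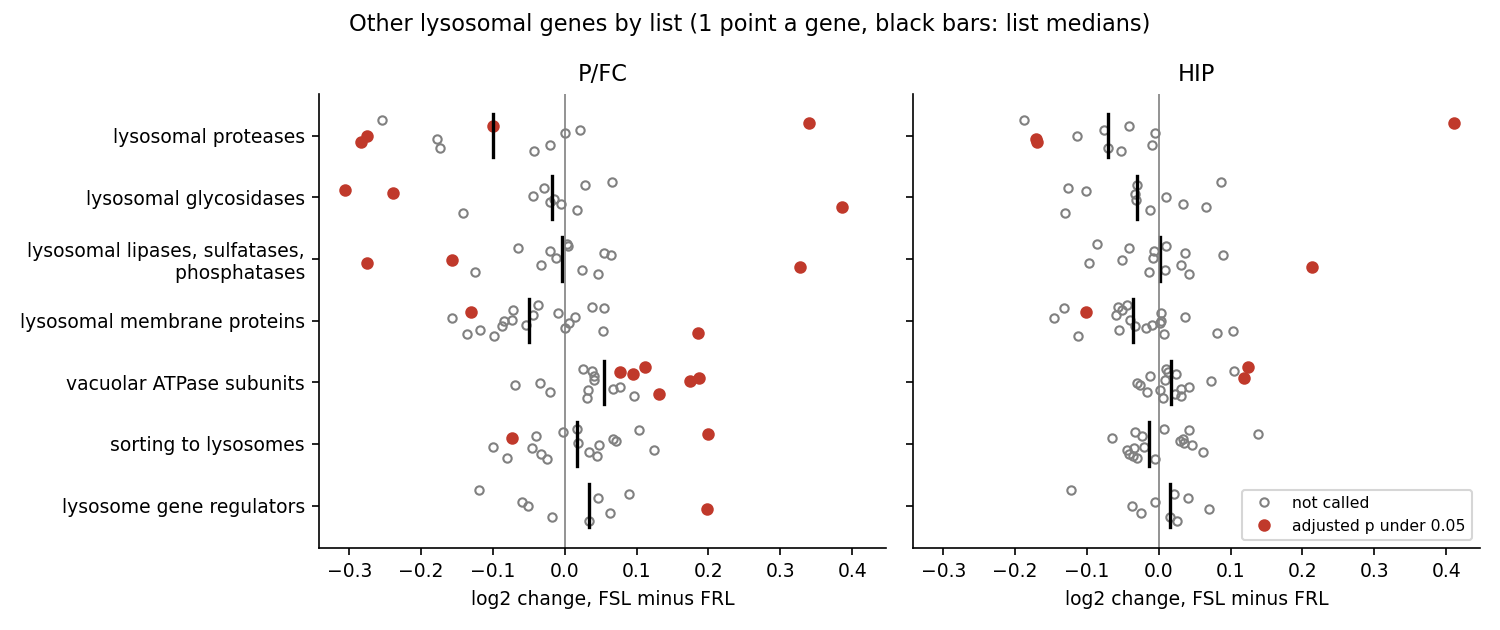
Log2 change (FSL minus FRL) of each fitted gene of the 7 lysosomal lists in P/FC and HIP, with red points where adjusted p was under 0.05, open points where it was not, and black bars at the list medians. Called genes lie on both sides of 0, from -0.31 (Man2b1) to 0.39 (Gaa) in P/FC and from -0.17 to 0.41 (Scpep1) in HIP, and the called ATPase subunits all lie above 0.

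Genes next to Scarb2 on chromosome 14 had changes of at most 0.17 in size where they were bright enough to fit. The 5 nearest genes with a probeset on one side were Stbd1, Ccdc158, Shroom3, Sowahb and Ccni, and on the other side Nup54, Art3, Cxcl11, Cxcl10 and Cxcl9. Sowahb, Cxcl11 and Cxcl9 were too dim to fit in either region, so nothing is known of their line difference. None of the fitted probesets was called in HIP, against 7.33% of all probesets. The HIP changes ran from -0.16 (Nup54) to 0.12 (Ccdc158). In P/FC Art3 rose by 0.16 (adjusted p = 0.0393), 1 of 2 Shroom3 probesets rose by 0.15 (0.0414, the other being too dim) and 1 of 2 Ccni probesets fell by 0.17 (6.10e-04, limma), the other lying at -0.07. Over the whole array 18.6% of probesets were called in P/FC. The adjacent genes Stbd1 and Nup54 had P/FC changes of -0.01 and 0.06.

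The probesets whose values went most with those of Scarb2 were Cdkl2, Bmp3, Srgap2, Cav1 and Ankrd12. Likeness was Pearson's r over the 78 arrays after each group of region, line and cohort was set to its own mean, and it was 0.51, 0.47, 0.47, 0.46 and 0.45 in that order, a description in which arrays share labelling and chip. Cdkl2, a protein kinase, and Bmp3, a member of the BMP ligand family, lie on chromosome 14 as Scarb2 does, as do 3.3% of the fitted probesets with a known chromosome. Bmp3 was higher in FSL rats by 0.76 in P/FC and 0.82 in HIP. Like those of Scarb2, these values are a description with no test, because Bmp3 was also picked out for its line difference in these arrays. Cdkl2 changed by 0.12 in P/FC, which did not pass (adjusted p = 0.111), and by 0.14 in HIP (adjusted p = 0.0197, limma). Srgap2 changed by 0.10 in P/FC and 0.04 in HIP. Cav1 (-0.33 in P/FC and -0.28 in HIP) and Ankrd12 (-0.23 and -0.22) went the other way from Scarb2. Srgap2, Cav1 and Ankrd12 were called in neither region. Among the members r with Scarb2 over the 78 arrays ran from -0.26 (Hexa) to 0.24 (Ctsb). Within P/FC the highest was 0.21 (Npc2), and within HIP it was 0.42 for the bright Ctsl probeset, 0.33 for Ctsb and 0.30 for Lamp2 1370010_at. Some pairs of other members went together more closely. The highest r was 0.70, between Npc2 and Lamp2 1370010_at, and Lamp1 1368504_at had 0.66 with that Lamp2 probeset. Npc2 had 0.65 with that Lamp1 probeset and 0.61 with the bright Ctsl probeset. The second probesets of these genes went along less. Lamp2 1383080_at had 0.29 with Lamp1 and 0.44 with Npc2, and the dimmer Ctsl probeset -0.11 and 0.08. Other pairs lay near 0, such as Lamp1 and Ctsb at 0.04.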

How the data were processed

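RNA of 78 samples, 39 a region, was measured on 1-colour Affymetrix rat arrays (Rat Genome 230, version 2.0). The authors normalised the arrays and subtracted background in Rosetta Resolver 5.1, and the deposited values are linear intensities. Here 57 control probesets were left out, values under 1 were set to 1, and log2 was taken. The filter was an intensity above 30 in 50% or more of the FSL and of the FRL arrays, which 22370 probesets passed in P/FC, 21630 in HIP and 20963 in both. Each region was fitted in limma 3.58.1 (R 4.3.3) with 1 mean for every combination of line and cohort, and all arrays together for contrasts between regions. Adjusted p-values are Benjamini-Hochberg over all probesets fitted. The methods also modelled the labelling batch, which is not in the labels and not in these fits. Both regions came from the same rats, but which arrays share a rat is not given, so the fits over both regions treat arrays as independent.

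Probesets were named from the platform annotation, in which 20826 probesets have 1 gene symbol, 436 several and 9780 none, with symbols updated through the gene ID. The text names all member probesets, up to 4 genes of each lysosomal list by adjusted p, the neighbours of Scarb2 in the RefSeq table (GRCr8) and the 5 probesets most like it. Where a listed gene had several probesets, the brightest stood for it. The members and lists were chosen with earlier results of these data known. The 3' to 5' ratios were compared by exact permutation of rats within region and cohort. The fits were tested on simulated data. The alternatives were other filters and scalings, a plain analysis of variance, separate cohorts, a replicate block, covariates and leaving out each array.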

Additional observations from a re-analysis of the deposited data

Results flagged for a closer look

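In groups of 8 to 10 arrays, 78 sets of member values were searched for an array far from the others of its group by Dixon's criterion, and 13 had one. Chance flags about 1 in 20 groups, and the probesets of a gene and of an array are not independent. In P/FC the FRL array numbered 3 of cohort 2 was the highest of 10 for Ctsd (547, next 504), Ctsl 1370244_at (678, next 600) and Npc2 (1158, next 909). In HIP the FRL array numbered 3 of cohort 2 was the highest of 10 for Ctsd (875, next 768) and Ctsl 1370244_at (563, next 486), and whether these arrays share a rat is not given. FSL replicate 7 of cohort 2 was the highest of 8 in P/FC for Ctsd (566, next 520) and for Lamp2 1370010_at (568, next 473). FSL replicate 8 of cohort 1 was the highest of 9 in P/FC for Ctsl 1370245_at (170.4, next 149.8) and for the dim Lamp1 1375629_at (40.3, next 27.9). Among HIP arrays, FRL replicate 4 of cohort 2 was lowest for Lamp1 1368504_at (1140.2, next 1248), and FRL replicate 5 of cohort 2 was lowest for Lamp2 1383080_at (212, next 256). The dim Lamp1 1375629_at was lowest in FSL replicate 1 of cohort 1 (16.2, next 34.0) and highest in FSL replicate 8 of cohort 2 (44.5, next 31.0).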

How the results depend on the processing

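Under the 16 alternatives without a left-out array, the Scarb2 change stayed above 0, from 0.56 to 0.78 in P/FC and from 0.36 to 0.61 in HIP. With a filter of 100 Scarb2 was too dim to be fitted. Of the other member probesets, those lower and called numbered 4 in P/FC. The number was 0 with the Gapdh ratio, the astrocyte, the endothelial or the neuron markers in the fit and 2 with the Actb ratio. It was 3 with no filter or with the microglia, meninges or striatum markers, and 5 with a plain analysis of variance. In HIP it was 0, and 1 with a plain analysis of variance or a filter of 100. None was called higher. Leaving out each array in turn gave 3 to 4 in P/FC and 0 to 1 in HIP. For the lysosomal lists in P/FC (12 higher, 9 lower) the counts were 3 and 0 with the Gapdh ratio, 1 and 0 with astrocyte markers, 2 and 1 with neuron markers, and 7 higher with the Actb ratio. In HIP (4 higher, 3 lower) they were 1 and 0 with the Actb ratio or astrocyte markers, 2 and 1 with neuron markers, 6 lower with the filter of 100 and 7 higher with the mean of a gene's probesets. Calls among all probesets moved as well. In P/FC they went from 18.6% to 3.81% (Gapdh ratio), 1.81% (astrocyte), 4.8% (neuron) and 13.2% (Actb ratio). In HIP they went from 7.33% to 2.04% (Actb ratio), 1.4% (astrocyte), 4.09% (neuron), 14.6% (filter of 100) and 7.25% (mean of a gene's probesets).

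Signs turned mostly where the change was near 0. In HIP the turned changes with the astrocyte markers in the fit were Lamp2 1370010_at 0.017, Ctsb -0.0060, Npc2 0.022, Man2b1 0.096 and Tfeb 0.038. With the endothelial markers they were Ctsl 1370244_at 0.0021, Npc2 0.0015 and Man2b1 0.070, with the meninges markers Ctsl 1370244_at 0.0017, with the neuron markers Hexa 0.0046 and Npc2 0.0039, with the striatum markers Ctsb -0.0076 and Tfeb 0.0016, and with the microglia markers Tfeb 0.0046. With the Gapdh ratio they were Hexa 0.0095 and Tfeb 0.0074, with the Actb ratio Hexa 0.0073, Clcn7 -0.063 and Tfeb 0.00082, with the replicate block Ctsb -0.00053 and Tfeb 0.018, and with the mean of a gene's probesets Lamp1 0.012 and Ctsl 0.051. In P/FC they were, with the astrocyte markers, Lamp2 1370010_at 0.091, Ctsl 1370244_at 0.031, Npc2 0.060 and Atp6v1h -0.018, and with the endothelial markers Lamp2 1370010_at 0.019, Ctsl 1370244_at 0.040, Psap -0.0048 and Npc2 0.0079. Psap was at -0.011 with the Gapdh ratio, -0.00044 with the Actb ratio, -0.0030 with the microglia, -0.012 with the neuron and -0.0058 with the striatum markers, and the mean of a gene's probesets gave Ctsl 0.015 and Rab7a 0.054. With single arrays left out, Ctsl 1370244_at in HIP ran from -0.0201 to 0.00353 and Psap in P/FC from -0.00141 to 0.0202. For P/FC minus HIP, quantile normalisation gave Scarb2 -0.015, Lamp1 -0.082, Lamp2 1370010_at -0.10, Hexa -0.012 and Npc2 -0.023. The causes were not tested.

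No source used here ties equal replicate numbers to 1 rat or batch, so the main fits did not pair arrays by number. Only the alternative with a replicate block grouped same-numbered arrays. Deviations of same-numbered FSL and FRL arrays correlated over 0.1 in 10 of 17 pairs in P/FC and 8 of 17 in HIP, and those of P/FC and HIP arrays in 10 of 39. Pairs of unlike number were not compared, so these counts have no baseline. With the replicate block the count of lower members stayed at 4 in P/FC and 0 in HIP, the Scarb2 change was 0.73 in P/FC and 0.54 in HIP, and the region contrasts called 7 and 0 member probesets as without it. The covariates of astrocyte, endothelial, meninges, neuron and striatum markers, and all covariates for the lists, were chosen after seeing the data. Dim Lamp1 probesets and the moderate Scarb2 intensity limit what those probes can show.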
